A study of Mus musculus with 23 samples.

Results

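Deptor, the subunits of the mTOR complexes and the proteins that feed into or follow from them were examined in TM4 cells, an immortalized mouse Sertoli cell line, after exposure to plasticizers. The 10 genes were Deptor, Mtor, Rptor, Rictor, Mlst8, Akt1s1, Ddit4, Eif4ebp1, Tsc1 and Tsc2. They are 10 of the 20145 genes that could be named on the array. Each had 1 probe, found by the RefSeq transcript that the array design gives for it, out of 55681 non-control probes. The genes were picked with their differences from DMSO on these arrays already known. Their differences are therefore given as a description, with errors and intervals but no p-value. Where a gene of the 10 is said to be called under the rule given below, the call is part of that description and not a test.

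The 23 samples were TM4 cultures that differed only in what was added to the medium, and every culture, the controls included, contained 1.0% DMSO for 48 hr. Control cultures (n = 4) received the vehicle only. The others received 100 μM of MEHP (n = 4), mono(2-ethylhexyl) phthalate, the monoester metabolite of the plasticizer DEHP, DINCH (n = 4), a commercial diester of cyclohexane dicarboxylic acid, DOM (n = 4), dioctyl maleate, BDB (n = 4), 1,4-butanediol dibenzoate, or DOS (n = 3), dioctyl succinate. TM4 is a single immortalized line, so the samples are cultures of that line and not animals. The authors describe the replicates as biological, and a DOS replicate was left out for high background. Nothing in the labels says that replicates were independent passages. The errors therefore measure the spread between these arrays and may not cover that between passages.

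The mTOR kinase works in a pair of complexes. With raptor (Rptor) it forms mTORC1, which promotes translation and growth when nutrients and growth factors are present, and with rictor (Rictor) it forms mTORC2, which phosphorylates AKT and SGK kinases. DEPTOR binds mTOR in both complexes and restrains the kinase. In Sertoli cells mTOR signalling is known for its part in proliferation and in the upkeep of the blood-testis barrier. The arrays measured RNA only, and neither protein amounts nor phosphorylation.

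Each RNA sample was hybridized to its own array with a single dye, and a level below is the log2 signal relative to the 75th percentile of its array, whose signal lay between 204.6 and 350.7. Between 43.4% and 52.2% of an array's probes were well above background. Of 16 Sertoli cell markers with a probe, 9 were well above background on all 4 DMSO arrays, and Amh, Fshr, Wt1, Cldn11, Trf and Gdnf were on none of them. Markers of other testis cells were mostly at background on the DMSO arrays, with 1 of 5 for Leydig cells, 2 of 6 for germ cells, 2 of 4 for peritubular myoid cells, 1 of 3 for macrophages and 1 of 3 for endothelium detected on all 4. Bright ones among them were Acta2 (myoid, DMSO mean 4.996), Cyp17a1 (Leydig, 3.68) and Csf1r (macrophage, 1.83). DOM changed Sox9 (log2 difference -0.92), Inhbb (1.61) and the smooth muscle marker Cnn1 (-1.21), and DINCH changed Dhh (1.09). The log2 of the summed Sertoli marker signal was 5.71 to 6.24 with DOM against 4.51 to 5.07 with DMSO. Inhbb had the highest DMSO mean of that list (4.11, then Inhba at 2.51) and weighs most in the sum. The sum therefore does not describe the Sertoli markers as a set. The log2 of the summed myoid marker signal was 4.62 to 4.73 with MEHP and 5.57 to 6.04 with DOS, below and above the 4.92 to 5.28 of DMSO, with Myh11 at background on all arrays. Acta2 had the highest DMSO mean of the myoid list (4.996) and weighs most in the myoid sum. That sum therefore does not describe the myoid markers as a set either. The sums of the other lists and compounds overlapped DMSO. The part of these shifts in the results below was not tested, and in whole cultures fewer cells with a transcript and less transcript per cell cannot be told apart.

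Deptor encodes the DEP domain protein that inhibits mTOR, and its RNA varied over a wider range than that of the other 9 genes, spanning 2.89 log2 units over the 23 arrays. It was read by probe A_51_P445841, which was well above background on 23 of 23 arrays. In DMSO the Deptor level was -0.90, -1.27, -1.08 and -0.995. In DOM it was 1.06, 1.31, 1.03 and 1.61, so that the lowest DOM array lay far above the highest DMSO array. MEHP arrays had Deptor levels of 0.03, -0.09, -0.21 and 0.16. DINCH arrays had levels of -0.09, -0.44, -0.46 and -0.23, and both groups lay wholly above DMSO. DOS arrays read -0.47, -0.68 and -0.58, also above every DMSO array but closer to them. BDB arrays read -0.94, -1.09, -1.27 and -0.77 and overlapped DMSO.

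**Figure D1:**
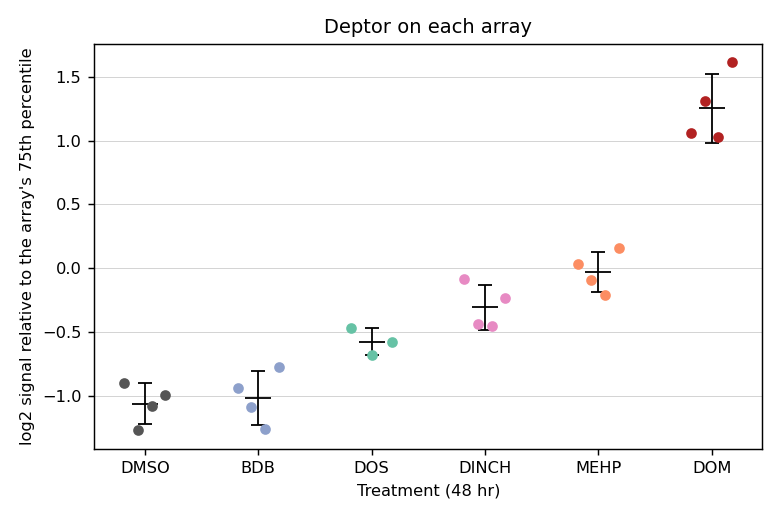
Deptor level on each of the 23 arrays, as log2 signal relative to the array's 75th percentile (vertical axis), by treatment (horizontal axis). Points are arrays, the horizontal mark is the mean and the bar is 1 SD. The means climb from -1.06 with DMSO to 1.25 with DOM, with BDB at -1.02.

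Relative to DMSO, Deptor was 4.98-fold higher with DOM (log2 difference 2.32 ± 0.15, SE), 2.05-fold higher with MEHP (1.03 ± 0.11) and 1.69-fold higher with DINCH (0.76 ± 0.12). With DOS it was 1.40-fold higher (0.49 ± 0.12) and with BDB 1.03-fold (0.05 ± 0.13). Among all tested probes ordered from the largest rise down, Deptor stood at place 38 of 24348 for DOM, 98 of 24188 for MEHP, 536 of 24001 for DINCH and 598 of 24209 for DOS. Under the call rule used throughout, a Benjamini-Hochberg adjusted p below 0.05 in limma and a change of more than 1.5-fold, Deptor was called with MEHP, DINCH and DOM and not with BDB or DOS. By the same rule 1.22% of all tested probes were called with MEHP, 6.14% with DINCH and 16.6% with DOM, and nothing is read from these shares because the gene was chosen on these contrasts. The DINCH call of Deptor was lost with another background correction (0.52), and the MEHP and DINCH calls were lost when dim probes were not filtered out.

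The arrays lay on 3 slides, each of which held DMSO. Within the slides the Deptor difference from DMSO was 2.09, 2.20 and 2.61 for DOM, 0.87, 0.97 and 1.15 for MEHP, and 0.81, 0.74 and 0.65 for DINCH. For DOS it was 0.43 and 0.37 on the slides 1 and 3 that held it. For BDB the Deptor differences were -0.04, 0.00 and 0.22. MEHP, DINCH and BDB lay in other rows of the slides than DMSO, so row and compound cannot be told apart for these 3. BDB lay in the same rows as MEHP and DINCH and had Deptor at the DMSO level, and an effect of the row was not tested for these 3. DOM and DOS shared their rows with DMSO. Row and compound therefore cannot be told apart either where DOM or DOS is set against MEHP, DINCH or BDB.

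In order of mean Deptor level the groups ran DOM (1.25 ± 0.27, SD), MEHP (-0.03 ± 0.16), DINCH (-0.31 ± 0.18), DOS (-0.58 ± 0.11), BDB (-1.02 ± 0.21) and DMSO (-1.06 ± 0.16). DOM was set apart from its neighbour MEHP by a log2 difference of 1.28 (95% interval 0.96 to 1.61). Arrays of MEHP and DINCH overlapped, with a difference of 0.28 (0.01 to 0.55). DINCH and DOS did not overlap, but the lowest DINCH array (-0.46) lay next to the highest DOS array (-0.47), and the interval of their difference of 0.27 ran from -0.03 to 0.57. DOS lay above BDB by 0.44 (0.14 to 0.74), and BDB and DMSO overlapped.

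Eif4ebp1 encodes 4E-BP1, the mTORC1 substrate that holds back cap-dependent translation by binding eIF4E. With DMSO its level was 7.92, 7.71, 7.70 and 7.76, and with DOM it was 6.91, 7.09, 6.93 and 7.04. All 4 DOM arrays therefore lay below all 4 DMSO arrays, by a mean of 1.72-fold (log2 difference -0.78 ± 0.10, SE). The gene was called, as were 16.6% of all tested probes with DOM. Within slides the DOM difference was -0.93, -0.78 and -0.71. With the other compounds the Eif4ebp1 level overlapped DMSO, and the differences ran from -0.16 for DINCH to 0.01 for BDB. Eif4ebp1 and Ddit4 gave very bright signals, with no saturated spot on any array. Quantile normalization brought the DOM difference of Eif4ebp1 to -0.56, below the 1.5-fold threshold, and that of Ddit4 to -0.29.

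Ddit4 encodes REDD1, a stress-induced protein that restrains mTORC1 through the TSC complex. The 250 bases upstream of its annotated start (RefSeq, GRCm38.p6, chr10:59951771-59952020, minus strand) are shown because Ddit4 was the only one of the 10 genes with groups apart from DMSO in both directions. Capitals mark a GC box, GGGCGG, at -232 and CCAAT boxes, which read ATTGG on this strand, at -170 and -137, counted from the start.

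Ddit4: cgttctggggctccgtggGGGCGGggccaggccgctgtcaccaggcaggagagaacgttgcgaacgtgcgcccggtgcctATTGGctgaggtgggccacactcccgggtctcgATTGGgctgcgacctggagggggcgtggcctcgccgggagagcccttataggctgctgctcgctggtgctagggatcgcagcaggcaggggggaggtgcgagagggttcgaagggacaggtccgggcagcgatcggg

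Both strands of the window were searched. The E-box, spelled CACGTG, was not found. The TATA box, TATAAA, was not found either. Also without a match were the composite site of ATF4 and C/EBP (TGATGNAA) and the core of the antioxidant response element, searched as TGACNNNGC. None of the marked boxes overlapped another. Of 32851 annotated mouse windows of the same length, 32.7% held the GC box, 33.8% the CCAAT box, 6.02% the E-box, 12.4% the TATA box, 3.45% the composite site and 10.2% the antioxidant core. Windows were found for 8 of the 10 genes, and the match is a description of the letters only.

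With DMSO the Ddit4 level was 6.81, 6.88, 6.94 and 6.81. DINCH arrays read 5.91, 6.38, 6.53 and 6.22, all below DMSO, and DINCH replicate 1 was the lowest of the 23. The difference was -0.60 ± 0.14, or 1.52-fold lower, barely past the fold threshold. The gene was called, as were 6.14% of all tested probes with DINCH. DOM arrays also lay wholly below DMSO, at 6.26, 6.49, 6.33 and 6.40, but the fold of 1.41 (-0.49 ± 0.09) did not reach the threshold. DOS arrays lay the other way, at 7.13, 7.11 and 7.10 against the highest DMSO array at 6.94, a 1.19-fold difference (0.25 ± 0.09) that was not called. MEHP (0.02) and BDB (-0.01) left Ddit4 within the DMSO range in their means. Within slides the Ddit4 difference was -0.91, -0.54 and -0.44 for DINCH, -0.44, -0.58 and -0.41 for DOM and 0.31 and 0.29 for DOS. The DINCH call was lost when any DMSO array, DINCH replicate 1 or DINCH replicate 4 was left out, with differences between -0.70 and -0.49 over all arrays left out in turn.

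Rictor encodes the subunit that defines mTORC2. Its DMSO levels were 0.16, -0.19, -0.31 and -0.23, and its DOM levels were 0.43, 0.19, 0.24 and 0.80. The groups did not overlap, although DMSO replicate 1 at 0.16 lay next to DOM replicate 2 at 0.19. DOM exceeded DMSO by 1.47-fold (0.56 ± 0.16), which was under the fold threshold. Within slides 1, 2 and 3 the Rictor difference was 0.15, 0.49 and 1.03, so the DOM value varied widely with the slide. Slide 3 held 1 DOM and 1 DMSO array. The other compounds overlapped DMSO for Rictor, from -0.20 with BDB to 0.13 with MEHP.

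Tsc1 and Tsc2 encode hamartin and tuberin, which together switch off the mTORC1 activator RHEB. The Tsc1 level was 1.95, 1.97, 1.78 and 1.86 with DMSO. With DOS it was 1.57, 1.502 and 1.56, with BDB it was 1.02, 1.64, 1.48 and 1.60, and with MEHP it was 1.68, 1.61, 1.74 and 1.75. These 3 groups lay below every DMSO array, by -0.35 ± 0.10, -0.46 ± 0.14 and -0.20 ± 0.08, and none was called. MEHP and DOS were also the compounds whose summed myoid markers, in which Acta2 weighs most, lay apart from DMSO. The sum lay below DMSO with MEHP and above it with DOS. With BDB that sum overlapped DMSO, and a link to Tsc1 was not tested. Without BDB replicate 1, the lowest array, the BDB difference of Tsc1 was -0.32. DINCH (0.00) and DOM (0.16) overlapped DMSO for Tsc1.

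The Tsc2 probe was the dimmest of the 10, with signals of 4.95 to 39.5, and was well above background on 16 of 23 arrays. It was detected on 4 DMSO, 3 MEHP, 1 DINCH, 4 DOM, 2 BDB and 2 DOS arrays. Its differences of -0.87 ± 0.34 with DINCH and -0.53 ± 0.18 with BDB came with overlapping groups and rest on arrays near background. They are given for completeness only.

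**Figure D2:**
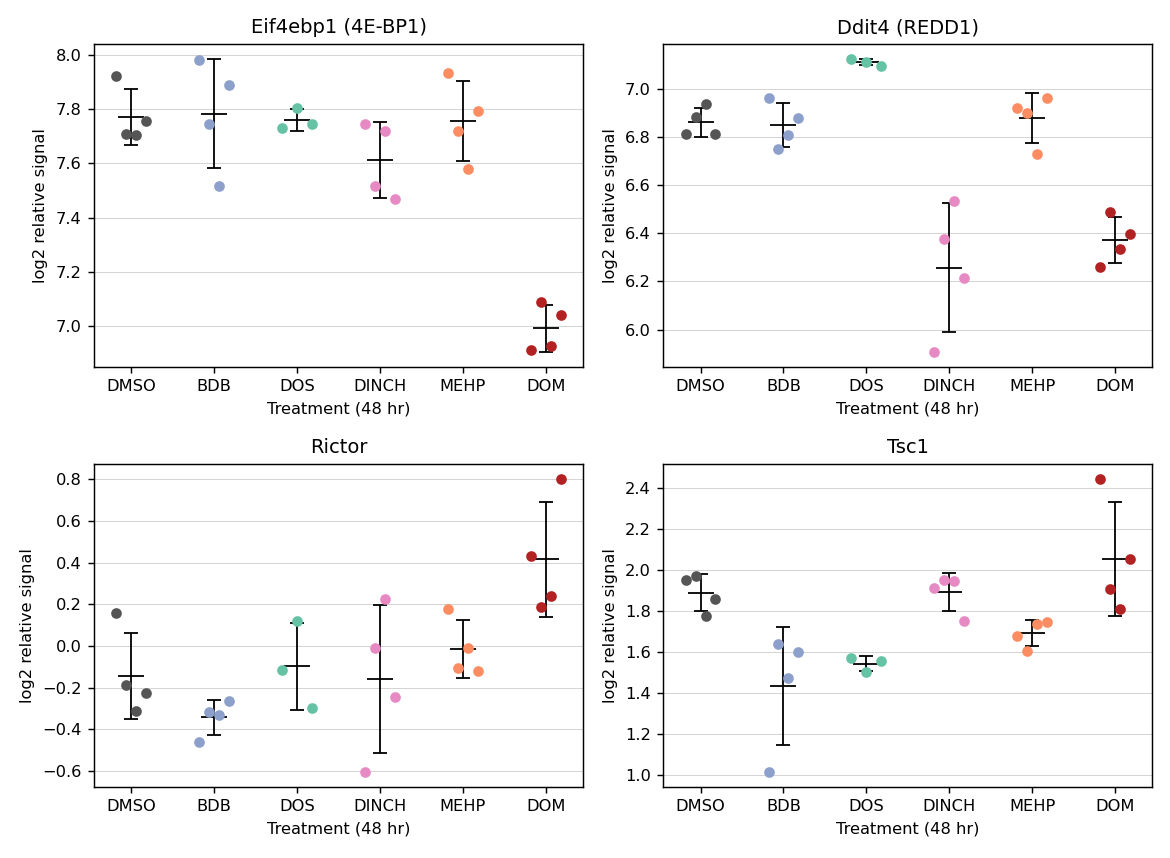
Levels of Eif4ebp1, Ddit4, Rictor and Tsc1 on each array, as log2 signal relative to the array's 75th percentile (vertical axes, which differ between panels and do not start at 0), by treatment. Points are arrays and bars are the mean with 1 SD. Eif4ebp1 is apart from DMSO with DOM only, Ddit4 lies lower with DINCH and DOM and higher with DOS, and Tsc1 lies lower with BDB, DOS and MEHP.

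The subunits that both complexes rest on differed little from DMSO. Mtor, the kinase itself, ranged from -0.003 to 0.604 over all arrays, and its largest difference from DMSO was -0.31 ± 0.11 with BDB, 1.24-fold lower. Mtor levels with BDB were 0.02, -0.003, 0.23 and 0.01, and replicate 3 lay within the DMSO range of 0.17 to 0.60. Rptor, the scaffold of mTORC1, differed most with DINCH, by -0.28 ± 0.12 with overlap. DOS levels of Rptor were 3.39, 3.54 and 3.53, below the lowest DMSO array at 3.60, for a difference of -0.19 ± 0.10. Mlst8, a subunit of both complexes, differed by at most 0.21 ± 0.09, with BDB, and the groups overlapped. Akt1s1 encodes PRAS40, which like DEPTOR is an mTORC1 inhibitor, and its differences ran from -0.18 with DINCH to 0.14 with DOM, all with overlap.

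**Figure D3:**
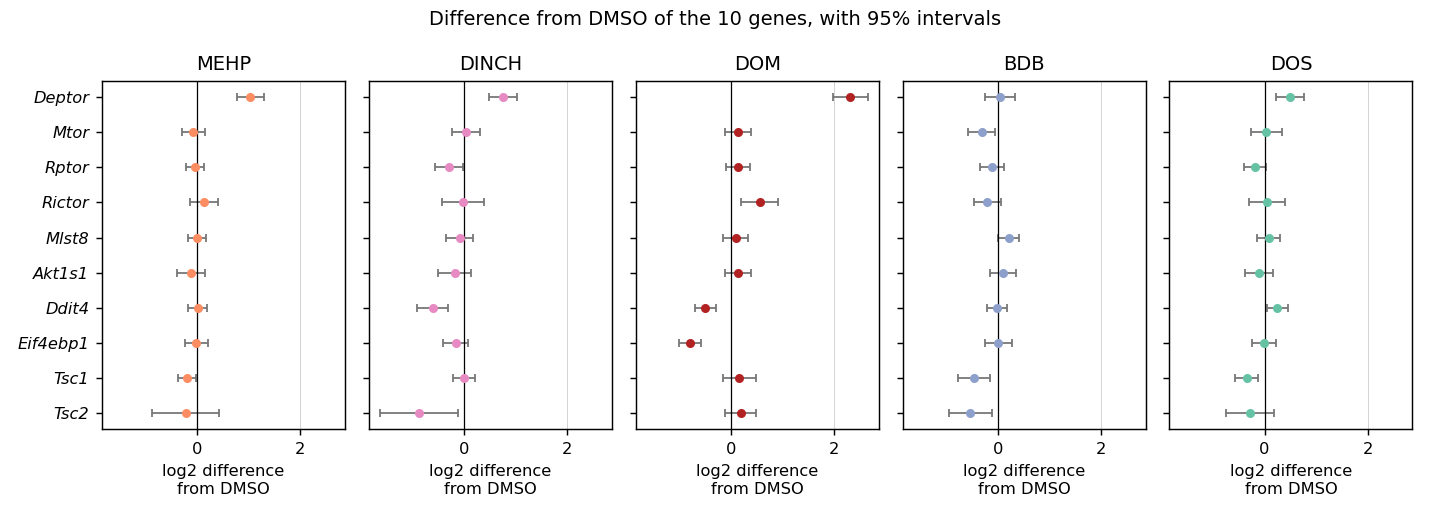
Difference of each compound from DMSO for the 10 genes (horizontal axis, log2 scale; one panel per compound). Points are the differences of group means and bars their 95% intervals from limma. Deptor is at 2.32 with DOM, and most of the other genes lie within 0.3 of 0.

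Counted over the 10 genes, 1 was called with MEHP (Deptor), 2 with DINCH (Deptor and Ddit4) and 2 with DOM (Deptor and Eif4ebp1). The share of all tested probes called was 1.22% for MEHP, 6.14% for DINCH and 16.6% for DOM. The genes were chosen with these contrasts known, so nothing is read from the counts in this paragraph beside the shares of all probes. None of the 10 was called by limma with BDB or DOS, where 0% of all probes were called. At an unadjusted p below 0.05 the 10 genes counted 4 with BDB and 3 with DOS, against 14.4% and 7.13% of all probes. Groups did not overlap DMSO for 2 genes with MEHP, 2 with DINCH, 4 with DOM, 1 with BDB and 4 with DOS. Among all tested probes the same held for 11.4%, 19.5%, 33.7%, 9.71% and 7.73%. The median size of the difference over the 10 genes was 0.09 with MEHP, 0.17 with DINCH, 0.18 with DOM, 0.15 with BDB and 0.15 with DOS, against 0.13, 0.18, 0.28, 0.12 and 0.11 over all tested probes. All 5 comparisons used the same 4 DMSO arrays.

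The compounds were given at the same dose for the same time, so they were also set against each other, in 10 pairs adjusted together. DOM and DOS are both dioctyl diesters and differ in the acid, since maleate has a carbon-carbon double bond that succinate lacks. Deptor was 3.55-fold higher with DOM than with DOS (log2 difference 1.83, 95% interval 1.47 to 2.19). Ddit4 was lower with DOM by -0.74 (-0.98 to -0.51) and Eif4ebp1 by -0.77 (-1.0 to -0.54). These 3 of 10 genes were called between DOM and DOS, against 11.4% of all probes. The pair reuses the DOM and DOS arrays whose differences from DMSO were known when the genes were picked. Nothing is therefore read from that share. With quantile normalization, or with dim probes kept, 1 of the 3 genes, Deptor, was called. For Rictor the DOM arrays lay above the DOS arrays by 0.51 (0.12 to 0.91) and for Tsc1 by 0.51 (0.15 to 0.87), without a call. For Mtor the difference between DOM and DOS was 0.11 (-0.13 to 0.35) and for Mlst8 0.01 (-0.26 to 0.28).

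Over the other 9 pairs, each with 9 or 10 of the genes tested, 14 differences were called, against 8.27% of all probes tested in those pairs. These pairs also reuse the compound arrays on which the genes were picked, so nothing is read from the count. In the pairs of DOM or DOS with MEHP, DINCH or BDB, the compounds lay in different rows of the slides. Row and compound cannot be told apart there, and an effect of the row was not tested. Deptor was called in DOM against MEHP, DINCH and BDB, and in MEHP and DINCH against BDB. It was not called between MEHP and DOS, at 0.55 (0.29 to 0.80). Eif4ebp1 was lower with DOM than with every other compound, by -0.62 (-0.87 to -0.38) against DINCH to -0.79 (-1.06 to -0.53) against BDB, and the pairs without DOM had differences from -0.17 to 0.14. Ddit4 was lower with DINCH than with MEHP, BDB and DOS, by 0.62, 0.59 and 0.86 in size, whereas DOM and DINCH differed by 0.11 (-0.20 to 0.43). DOM against BDB had the most calls, 5, with Rictor (0.76), Tsc1 (0.62) and Tsc2 in addition to Deptor and Eif4ebp1, where 21.1% of all probes were called. Tsc2 was well above background on 4 DOM but only 2 BDB arrays and entered that comparison through DOM, so its size is not given. Its call is included in the 5 and the 14 but is not read as a change.

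**Figure D4:**
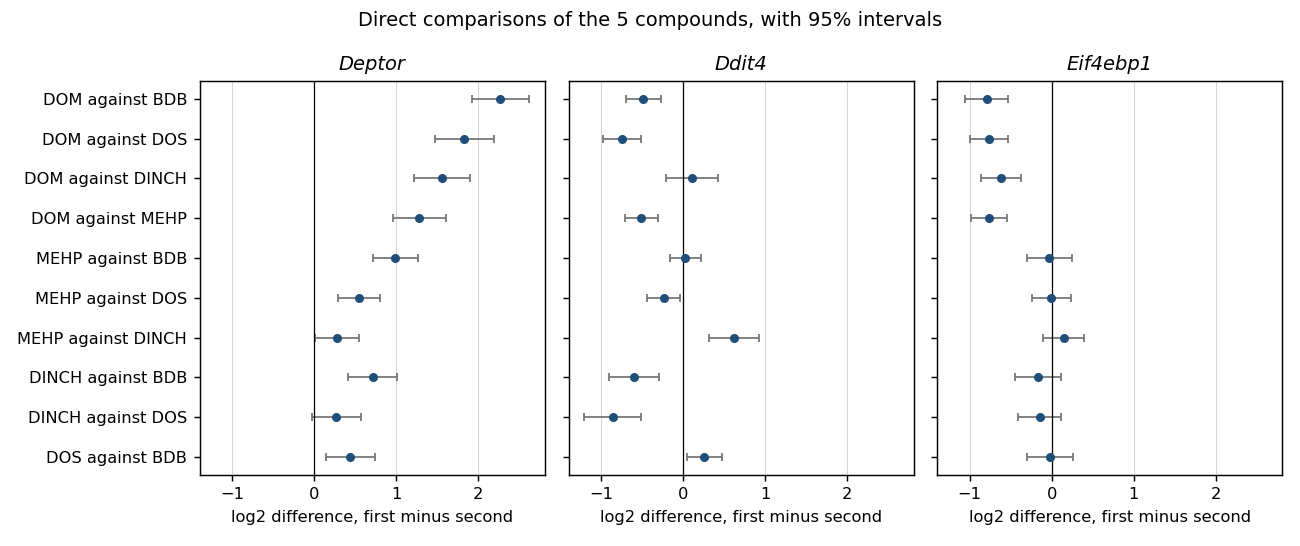
Differences between compounds for Deptor, Ddit4 and Eif4ebp1 (horizontal axis, log2 scale, first named minus second), with 95% intervals, for the 10 pairs. Deptor separates DOM from all others, at 1.28 to 2.27, and Eif4ebp1 separates DOM in the other direction. In the pairs of DOM or DOS with MEHP, DINCH or BDB, compound and slide row cannot be told apart.

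Other genes of the pathway were taken from 5 lists of textbook members that hold none of the 10, with 88 of 95 genes tested. The lists were chosen with earlier results of these data known, and the genes named below are called ones, mostly those with the greatest change. Their limma adjusted p-values are therefore a description and not independent tests. MEHP raised 1 of the 88. DINCH raised 6 and lowered 4, or 11.4%, against 8.26% of all tested genes. DOM raised 10 and lowered 4, or 15.9%, against 20.5%, and for MEHP the background was 1.68% of genes. BDB and DOS had no call in limma, with 20 and 14 of the 88 at an unadjusted p below 0.05 against 19% and 7.73% of all tested genes. Median differences over the 88 genes lay between -0.07 and 0.03 for the 5 compounds.

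Lpin1, which encodes the mTORC1-regulated phosphatase lipin 1, was called with the same 3 compounds as Deptor. Its level was -2.01 to -1.35 with DMSO and rose to -0.67 to -0.44 with MEHP (1.16 ± 0.14, SE, limma adjusted p = 0.00855), to -1.02 to -0.28 with DINCH (1.11 ± 0.20, limma adjusted p = 0.0115) and to -0.65 to -0.18 with DOM (1.26 ± 0.16, limma adjusted p = 0.000801). Each of these 3 groups lay above DMSO on every array. The MEHP and DINCH calls were lost when dim probes were kept. With BDB (-2.05 to -1.31) and DOS (-1.499 to -1.36) Lpin1 overlapped DMSO.

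Among the effectors of the complexes, 21 genes tested, DOM raised 4 and lowered 2, or 28.6% against 20.5% of all tested genes. Sgk1, a kinase activated by mTORC2, rose by 0.77 (limma adjusted p = 0.00327). Ndrg1, a substrate of SGK1, fell by 0.92 (limma adjusted p = 0.0035), and Eef2k, the elongation factor 2 kinase that mTORC1 signalling inhibits, fell by 0.83 (limma adjusted p = 0.00234). All 4 DOM arrays were beyond all 4 DMSO arrays for these 3 genes. DINCH raised 2 of the 21 effectors (9.52% against 8.26%), MEHP raised Lpin1 only (4.76% against 1.68%), and BDB and DOS changed none, with 4 each at an unadjusted p below 0.05.

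Of 24 genes of growth factor and energy input, DOM raised 3 (12.5% against 20.5%) and DINCH lowered 1 (4.17% against 8.26%). Irs1, the insulin receptor substrate, was at 0.56 to 1.28 with DMSO and rose to 2.08 to 2.62 with DOM (1.33 ± 0.18, limma adjusted p = 0.00089). With DINCH Irs1 fell by 0.65 (limma adjusted p = 0.0439), a call that was lost under 11 of 19 other settings, where the difference stayed between -0.80 and -0.47. Phlpp1, a phosphatase of AKT, rose by 0.68 with DOM (limma adjusted p = 0.00289) and Pik3r3, a regulatory subunit of PI3K, by 0.59 (limma adjusted p = 0.0171), a call lost under 5 of 20 other settings.

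Amino acid sensing at the lysosome was covered by 27 tested genes, of which DINCH raised 3 and lowered 3 (22.2% against 8.26% of all tested genes) and DOM raised 2 and lowered 1 (11.1% against 20.5%). Castor2, a relative of the arginine sensor CASTOR1, was at 2.53 to 2.73 with DMSO and rose to 3.48 to 3.62 with DOM (0.94 ± 0.09, limma adjusted p = 0.000285). Sesn1, a sestrin of the family that senses leucine, rose with DOM by 0.84 (limma adjusted p = 0.00132). DINCH raised Fnip2, a folliculin partner, by 0.78 (limma adjusted p = 0.0112). It also raised Castor1 by 0.82 (limma adjusted p = 0.0309), with arrays that overlapped DMSO and a call lost under 9 of 19 other settings. The lowered calls with DINCH were Sesn2, another sestrin (-0.73, limma adjusted p = 0.00991), Itfg2 (-0.65, limma adjusted p = 0.00606) and Mios (-0.59, limma adjusted p = 0.0135). Itfg2 was also the lowered call with DOM (-0.68, limma adjusted p = 0.0021). These lowered calls were not followed under other settings.

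Among 9 tested regulators of the complexes, DOM lowered Rheb, the GTPase that activates mTORC1, by 0.88 (limma adjusted p = 0.0254) in 3 DOM arrays, since the spot was an outlier on the other one. The Rheb levels overlapped, at 2.82 to 3.66 with DOM and 3.60 to 4.34 with DMSO. This Rheb call was lost under 8 of 20 other settings. DINCH raised Prr5l, an mTORC2 partner, by 0.73 (limma adjusted p = 0.0127). Each of these compounds changed 1 of the 9, or 11.1%, against 20.5% of all tested genes for DOM and 8.26% for DINCH. Of 7 genes that act on DEPTOR protein turnover, DOM raised Btrc, the F-box protein that marks DEPTOR for degradation, by 0.60 (limma adjusted p = 0.0173), and its other probe differed by 0.32 without a call. This was 14.3% of the list against 20.5% of all tested genes. The Btrc call was lost under 7 of 20 other settings, and the other 6 genes of that list were not called with any compound.

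**Figure D5:**
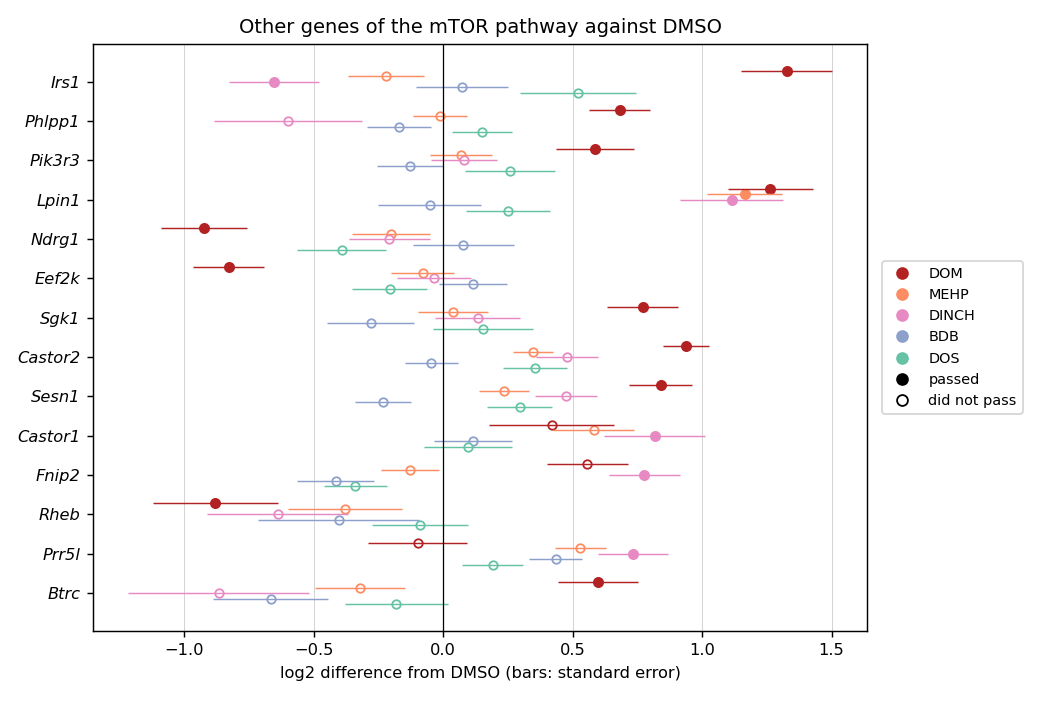
Differences from DMSO of the 14 named pathway genes outside the 10 (horizontal axis, log2 scale; bars are standard errors), coloured by compound. Filled points passed the test and open points did not. Lpin1 lies at 1.11 to 1.26 with MEHP, DINCH and DOM, and Irs1 at 1.33 with DOM and -0.65 with DINCH.

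The genes whose levels followed Deptor most closely over the 23 arrays were Shisa4 (Pearson r = 0.96), Gstm1 (0.95), Tmem63b (0.95), Arhgap45 (0.95) and Pitpnm1 (0.94), out of 12156 genes compared. Gstm1, a glutathione S-transferase, had a mean level of 2.84 with DMSO, 3.40 with MEHP, 3.54 with DINCH and 4.88 with DOM. Within the 10 genes, Deptor ran with Rictor (r = 0.71) and against Eif4ebp1 (r = -0.78) and Ddit4 (r = -0.53). These correlations describe 23 arrays that share 6 treatments and 3 slides, so the arrays are not independent points, and no test was made.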

How the data were processed

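The authors read spot intensities from scans of single-dye arrays with Agilent's extraction software, including background subtraction and a correction for spatial trends. These deposited intensities are linear values without scaling across arrays. A second file, also from the authors, holds log2 values after a 75th percentile shift and centring of each probe (column medians -0.361 to 0.183), and served as an alternative. Each array correlated with its own column at 0.9996 or above.

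Here each processed intensity (floor 1) was put on the log2 scale and expressed relative to the 75th percentile over the non-control spots of its array. Outlier spots as marked by the software, 102 to 187 on an array, were dropped. To be tested, a probe needed a signal well above background, and not under the 20th percentile, on all arrays of either group compared. Compounds were set against DMSO and against each other in limma 3.58.1 (R 4.3.3), with Benjamini-Hochberg adjustment over tested probes and the 1.5-fold threshold. The fit was tested on simulated data. RefSeq accessions named 26582 probes. The number of arrays limits the precision. Array design and gene names come from different genome builds, so no gene position is given other than that of the Ddit4 upstream window, which carries its own build.

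All 10 genes are named, and in each pathway list up to 4 called genes with the greatest change on the brightest probe. In the amino acid list the lowered calls, Sesn2, Itfg2 and Mios, are named as well. The 5 genes most like Deptor by Pearson correlation are named too. Genes and lists were chosen with earlier results of these data known. Replicate numbers were checked as pairs. Deviations of arrays with the same number correlated with those of DMSO at 0.169 to 0.496 for DINCH, 0.255 to 0.434 for BDB and 0.199 to 0.452 for DOS, and at -0.14 to 0.454 for MEHP and 0.0384 to 0.431 for DOM, where not every pair was above 0.1. Plots were made with matplotlib 3.10.9 under Python 3.11.15.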

Additional observations from a re-analysis of the deposited data

Results flagged for a closer look

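Of 50 groups of 4 arrays examined over the 10 genes, 1 held an array far from the other 3. Mtor in BDB replicate 3 was at 0.23 (log2 level) against -0.003 to 0.019 on the other BDB arrays. Chance gives such a gap in about 1 of 20 groups.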

How the results depend on the processing

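No difference of Deptor from DMSO changed direction for DOM, MEHP, DINCH or DOS under the settings tried. With normexp background correction the Deptor difference was 0.77 for MEHP, 0.52 for DINCH, 1.86 for DOM and 0.34 for DOS, and DINCH then kept 1 call among the 10 genes (Ddit4) and 4 among other pathway genes. Within slide 1 it was 0.87 for MEHP and 2.09 for DOM, and within slide 3 2.61 for DOM. With no filter on dim probes, both the fit and the adjustment covered more probes. The 10 genes then had 0 calls with MEHP, 0 with DINCH, 1 (Deptor) in DOM against DOS and 6 in the other pairs. Pathway genes had 0 with MEHP and 0 with DINCH. Detection on 1 array left 1 call with DINCH (Deptor). Quantile normalization left 1 with DOM and 1 in DOM against DOS. With no fold threshold the calls were 4 of the 10 genes with DOM, and 3, 17 and 33 pathway genes with MEHP, DINCH and DOM. A slide block gave 2 pathway calls with MEHP and 1 with BDB, and all 6 groups in 1 fit or a variance trend gave 1 with BDB. The cause of these changes was not tested.

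Leaving out each array in turn, the Deptor difference ranged from 0.96 to 1.09 (MEHP), from 0.68 to 0.81 (DINCH), from 2.20 to 2.39 (DOM), from -0.04 to 0.13 (BDB) and from 0.42 to 0.54 (DOS). Calls among the 10 genes were 1 to 1 with MEHP, 1 to 3 with DINCH, 2 to 3 with DOM, 3 to 4 in DOM against DOS and 11 to 16 in the other pairs, and 0 with BDB and DOS. The third call with DINCH, without DINCH replicate 3, was Tsc2, which was above background on 1 of 4 DINCH arrays and is not read as a change. Rictor was gained without DMSO replicate 1, DOM replicate 2 or DOM replicate 3. Pathway calls were 1 to 2, 7 to 10 and 11 to 16 with MEHP, DINCH and DOM. The share of all probes called was not computed under the settings of this section, so nothing is read from these counts.

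With the replicate number as a block, the calls among the 10 genes stayed at 1, 2, 2, 0 and 0 for MEHP, DINCH, DOM, BDB and DOS, the pathway calls were 1, 12, 14, 0 and 0, and the Deptor difference for DOS was 0.42. Differences of the other 9 genes were recomputed with other normalizations or values, with blocks, in 1 fit of all groups and without each array. Of these, 675 moved by less than 1 SD and 9 by more. Leaving out 1 array cannot move a difference by 1 SD, and the fit of all groups returns the same difference. Nothing is therefore read from these counts. A block for the row on the slide could not be fitted for MEHP, DINCH and BDB against DMSO. Nor could it be fitted for DOM or DOS against MEHP, DINCH or BDB, which shared no row with them. It was not run for the pairs among MEHP, DINCH and BDB. What the signal limits is Tsc2, on 16 of 23 arrays above background.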
